A study of Mus musculus with 2 samples.

Results

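Among the leukemic promyelocytes of vehicle-treated mice, 300 cells held RNA of both Cpa3 and Mpo above a fixed level. They were 5.83% (exact binomial 95% interval 5.21 to 6.51) of 5146 vehicle cells kept after filtering and came from 11394 kept cells in both libraries of the study. Cells were kept with at least 5000 UMIs (unique molecular identifiers, each marking 1 captured RNA molecule), at least 500 detected genes and 0.1 to 10% of UMIs in mitochondrial genes. The double-positive cells were chosen by their measured Cpa3 and Mpo levels, each of which had to reach 200 CPM in the cell, where CPM is the percent of UMIs that a gene takes, times 10000. The class is compared with 2369 cells at the level for Cpa3 only (46.0%) and 621 cells at the level for Mpo only (12.1%), and 1856 cells (36.1%) were at the level for neither gene.

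The study profiled single promyelocytes from the leukemic bone marrow of mice carrying PLZF/RARA, the fusion of the zinc finger protein PLZF with the retinoic acid receptor alpha. The vehicle group received corn oil with 10% DMSO and the other group 0.8 to 1 mg retinoic acid, both by intraperitoneal injection over 7 days in cohorts of 3 to 5 mice. Both groups carried the fusion, so neither is a normal promyelocyte, and both were sorted as late promyelocytes (positive for CD45.2, c-Kit, Gr1 and Fcγ receptor, negative for CD34) and then captured in droplets (10x Genomics, 3′ ends of polyadenylated RNA, with 6000 cells aimed for). The number of mice behind a library and the way the fusion entered the cells are not given in the sources used here. Each group held 1 library, so no comparison has a replicate check, no p-value is given, and every interval covers counting error alone and leaves out the spread among mice, sorts and preparations.

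Cpa3 encodes carboxypeptidase A3, a protease of the secretory granules of mast cells and basophils that is also transcribed in their progenitors. Mpo encodes myeloperoxidase, the peroxidase of the primary (azurophilic) granules that neutrophil precursors fill at the promyelocyte stage. Both lineages are myeloid, and a cell with RNA of both genes holds products that mature mast cells and neutrophils keep apart. In GRCm38, Cpa3 (ENSMUSG00000001865) lies on chromosome 3 from 20215620 to 20242181 on the minus strand and Mpo (ENSMUSG00000009350) on chromosome 11 from 87793581 to 87804413 on the plus strand.

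The levels that chose the cells are given as a description. Cpa3 over the 300 cells ran from 201 CPM through a median of 553 to 4563, and Mpo from 201 through a median of 665 to 6873. In raw UMIs the median double-positive cell held 11 of Cpa3 and 13 of Mpo, no such cell rested on 1 UMI of either gene, 6 had at most 2 UMIs of either, 245 had at least 5 of each and 109 at least 10 of each. The median Cpa3 level was 916 in the Cpa3-only class and the median Mpo level 1029 in the Mpo-only class, above both medians of the double-positive cells. Mpo lay above Cpa3 in 168 of these cells, Cpa3 above Mpo in 114, and both were equal in 18. The genes were within 2-fold of each other in 143 cells and over 4-fold apart in 89.

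No gap separated the class at its threshold. The cell just inside had a lower level of 200.5 CPM (8 Cpa3 and 3 Mpo UMIs among 14960), and the cell just outside 199.2 (16 and 9 UMIs among 45170). In 56 double-positive cells the lower of the 2 genes lay between 200 and 250 CPM, and in 83 other cells between 150 and 200. Of the Cpa3-only cells, 342 (14.4%) held an Mpo UMI below the level, and of the Mpo-only cells 282 (45.4%) held a Cpa3 UMI.

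**Figure D1:**
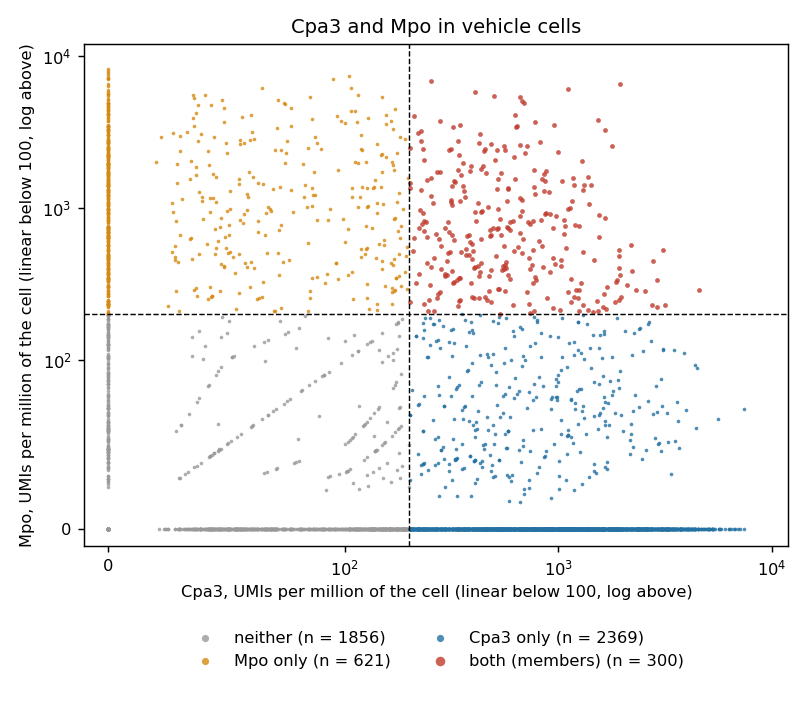
Cpa3 (x axis) and Mpo (y axis) in CPM of the cell for the 5146 kept vehicle cells, 1 point per cell, on axes that are linear below 100 and logarithmic above, with dashed lines at 200. The 300 cells with both genes fill the upper right without a gap to the neighbouring classes, and most Cpa3-only cells lie at 0 for Mpo.

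Cells with both genes were fewer than the product of the separate shares. Cpa3 reached the level in 2669 cells (51.9%) and Mpo in 921 (17.9%), whose product is 9.28% or 478 cells, so the observed number was 0.628 times the product. Mpo reached the level in 11.2% of the cells with Cpa3 and in 25.1% of the cells without. The share with Mpo was smaller at higher Cpa3 levels: over 4 equal groups of Cpa3-positive cells, from the lowest level to the highest, it was 17.8%, 14.4%, 8.40% and 4.35%. Over 4 equal groups by Mpo level, the share with Cpa3 was 44.2%, 35.2%, 30.4% and 20.4%. Across the 5146 cells, which share a library and differ in depth, the 2 levels had a Pearson correlation of −0.149 and a Spearman correlation of −0.204, and across the 300 cells −0.129 and −0.168.

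The number of double-positive cells moved with depth. A level of 200 CPM is 1 UMI in a cell of 5000 UMIs and 4 UMIs at the median depth of the class. Over 4 equal groups of kept cells, from the shallowest to the deepest, double-positive cells made up 3.50%, 6.53%, 5.21% and 8.08%, against products of 5.80%, 8.77%, 8.93% and 12.0%. The ratio of observed to product was below 1 in each group (0.603, 0.744, 0.583 and 0.671) and in each cell cycle phase (0.697 in G1, 0.779 in S and 0.689 in G2/M). By cluster (described further on) it was 0.733, 0.775 and 0.711 in clusters 0 to 2, but 1.17 in cluster 3, 1.12 in cluster 4 and 4.81 in cluster 5, which held 8, 11 and 1 double-positive cells. When every cell was thinned to 5000 UMIs, where 1 UMI meets the level, 481 cells (9.35%) held both genes at a ratio of 0.744. At 400 CPM 137 cells remained (2.66%, ratio 0.465).

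**Figure D2:**
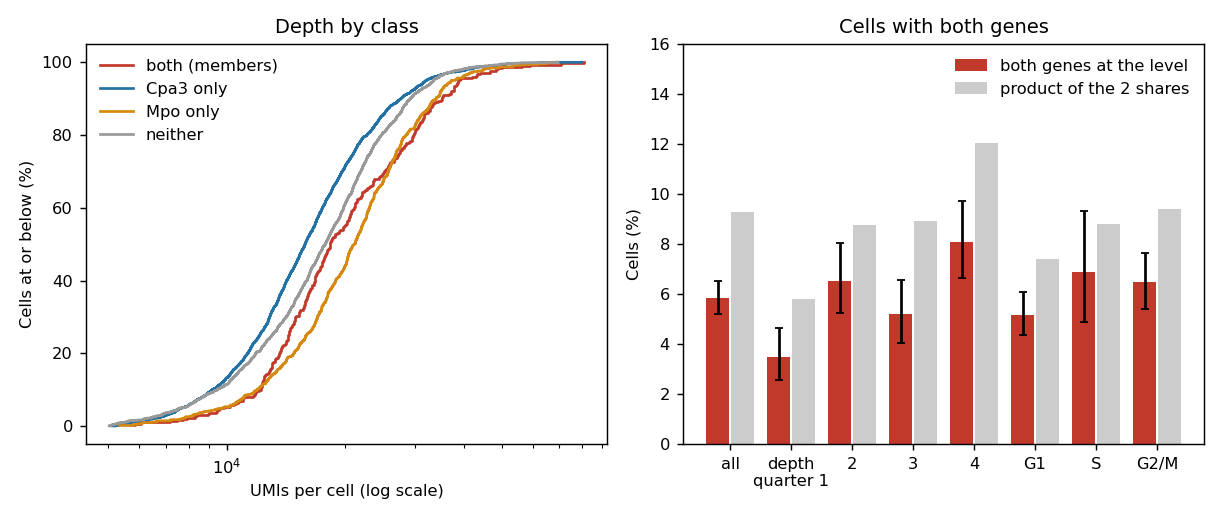
Left, the cumulative percent of cells (y axis) at or below a number of UMIs per cell (x axis, log scale) for the 4 classes; right, the percent of cells with both genes (red, exact 95% binomial interval as the error bar) beside the product of the 2 separate shares (grey) in all kept vehicle cells, in 4 equal groups by depth and in 3 cell cycle phases. The curve of the double-positive cells lies between those of the Cpa3-only and Mpo-only cells over its middle part, and each red bar is lower than its grey neighbour.

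The median depth of the double-positive cells lay below the sum of the medians of the single-gene classes. It was 18296 UMIs (quartiles 14356 and 27463, range 5704 to 80680), against 15813 (quartiles 12135 and 21008) in the Cpa3-only and 21092 (15946 and 26917) in the Mpo-only class. The upper quartile of the double-positive cells was thus above both others. That is 1.16 times the Cpa3-only median, 0.867 times the Mpo-only median and 0.496 times their sum of 36905. A minority lay at or over that sum: 26 double-positive cells (8.67%), 68 Cpa3-only cells (2.87%) and 35 Mpo-only cells (5.64%). After thinning to 5000 UMIs the median number of detected genes was 1864, between 1795 in the Cpa3-only and 1919 in the Mpo-only class.

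Doublet scores were higher in the double-positive class. The median Scrublet score was 0.0884 in the double-positive class, 0.0656 in the Cpa3-only class and 0.0628 in the Mpo-only class. Among the 257 cells with the 5% highest scores were 41 double-positive cells, 13.7% of the class (9.99 to 18.1), against 5.78% of the Cpa3-only, 4.03% of the Mpo-only and 2.91% of the remaining cells. These 257 cells had a median of 31747 UMIs. Scrublet itself marked 1 vehicle cell (0.0194%), which is too few for a caller that worked, so the scores are values only and the part of doublets in the results below was not tested. Without the 257 cells, 259 double-positive cells remained.

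As a rough measure of background, the 129 deposited vehicle barcodes below 1000 UMIs, whose content (cells or empty droplets) was not tested, held Cpa3 at 145 CPM (14 UMIs, 79.4 to 244) and Mpo at 51.9 (5 UMIs, 16.9 to 121). None of them held both genes at the level. In 43 kept cells with at least 5% of UMIs in genes of neutrophil maturation, 5 had a Cpa3 UMI and 2 an Mpo UMI, at 65.8 and 13.2 CPM and a median depth of 9539 UMIs. Of the 43, 3 were at the Cpa3 level, 1 at the Mpo level, and 1 of these at both. The part of free RNA in the class was not tested. Mitochondrial UMIs were 2.23% of the median double-positive cell, 2.07% of the median Cpa3-only and 2.02% of the median Mpo-only cell.

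The retinoic acid library held no such cell. Of its 6248 kept cells 0 met both levels, which allows a share of up to 0.0480% by a limit of 3 counts and 0.0590% by the exact binomial interval; 1 met the Cpa3 level and 1 the Mpo level. Cpa3 had 8 UMIs in 6 of its cells and Mpo 55 UMIs in 3. Treatment, mice and preparation cannot be told apart here. The matrices shared 11 barcodes, none of which marked a double-positive cell.

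The sorted antigens and other markers were checked in CPM of the UMIs summed over a class. Ptprc (CD45) stood at 89.2 CPM in the double-positive class, Kit at 21.5 CPM and Fcgr3 at 46.5 CPM. Of the genes whose proteins the Gr1 antibody binds, Ly6c2 reached 4482 CPM and Ly6g 5.71 CPM. Cd34, whose protein was gated out, had RNA in 211 of the 300 cells, at 68.5 CPM against 57.1 in Cpa3-only and 61.1 in Mpo-only cells. Of 30 mast cell and basophil genes, 7 were at 0 in the class (Fcer1a, Mcpt4, Tpsb2, Tpsab1, Il13, Slc18a2 and Cd200r3), of which Fcer1a, Mcpt4, Tpsb2 and Tpsab1 were at 0 in all 4 classes. Of 14 primary granule genes only Ctsc was at 0, in all 4 classes. Monocyte and dendritic genes reached at most 6.52 CPM and lymphoid genes at most 8.95 CPM in the classes compared. The class is therefore called by its 2 genes and given no cell type name.

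Other genes than Cpa3 and Mpo were then compared between classes. With a minimum of 20 CPM in either class, 56 of 5306 genes (1.06%) differed at least 1.5-fold between double-positive and Cpa3-only cells, 14 higher (0.264%) and 42 lower (0.792%). Against Mpo-only cells 93 of 5417 (1.72%) differed, 61 higher (1.13%) and 32 lower (0.591%). The single-gene classes differed from each other in 465 of 5453 genes (8.53%), of which 169 (3.1%) were higher and 296 (5.43%) lower in Cpa3-only cells. The median over all genes was a log2 ratio of 0.07 against Cpa3-only and −0.06 against Mpo-only cells. Weighting the single-gene classes to the depths of the double-positive cells left 25 and 78 genes, and raising the level to 400 CPM, with 137 cells, gave 124 and 193.

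Of 13 primary granule genes compared, 10 had summed levels above those of Cpa3-only cells and 9 levels below those of Mpo-only cells, by less than 1.5-fold for most. The medians over all genes leaned the same ways (0.07 and −0.06), so these counts alone do not set the list apart. Elane, which encodes neutrophil elastase (ENSMUSG00000020125, chromosome 10, 79886247 to 79888215), ran from 0 through a median of 0 to 1337 CPM over the 300 cells and was detected in 121. Its summed level was 63.4 CPM (57.4 to 69.9), against 12.3 in Cpa3-only and 170 in Mpo-only cells, log2 ratios of 2.37 (2.18 to 2.56) and −1.42 (−1.58 to −1.27). Elane was thus carried by a minority of the cells, and the 3 highest cells held 26.0% of its UMIs. Prtn3, the gene of proteinase 3, ran from 0 through 130 to 1287 CPM over the cells and stood at 202 CPM against 155 and 386, log2 ratios of 0.39 and −0.93.

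Ms4a3, a membrane protein gene of granulocyte and monocyte progenitors, was more even. It ran from 0 through 734 to 2381 CPM over the cells, was found in 293 of the 300 cells, and stood at 823 CPM against 530 and 1286, log2 ratios of 0.63 (0.59 to 0.68) and −0.64 (−0.69 to −0.60). Ctsg, the gene of cathepsin G, was found in every double-positive cell, from 1020 through 6717 to 19840 CPM, with a log2 ratio of 0.34 against Cpa3-only and −0.15 against Mpo-only cells. Of the granule genes, 2 (Elane and Ms4a3) were at least 1.5-fold higher than in Cpa3-only cells and 4 (Elane, Prtn3, Ms4a3 and Hp) at least 1.5-fold lower than in Mpo-only cells. Over all genes these shares were 0.264% and 0.591%. The Ms4a3 ratio against Cpa3-only cells was within 1.5-fold with depth weighting (0.40) and TMM scaling (0.56), as were Hp (−0.52) and Ms4a3 (−0.58) against Mpo-only cells at a level of 400 CPM and Hp with TMM scaling (−0.58). The list medians were 0.15 and −0.14, beside 0.07 and −0.06 over all genes. Trem3, a myeloid receptor gene outside the list, followed with log2 ratios of 1.04 and −0.79.

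Mast cell and basophil genes showed the mirror order. All 13 compared had summed levels below those of Cpa3-only cells, 7 of them at least 1.5-fold (Gata2, Hdc, Mcpt8, Il4, Cyp11a1, Csf2rb2 and Itgb7), with a list median of −0.62. Over all genes 0.792% were at least 1.5-fold lower, and the median was 0.07. Against Mpo-only cells 10 of 12 were higher, 6 at least 1.5-fold (the same without Il4, which lay under 20 CPM), with a list median of 0.57. Over all genes 1.13% were at least 1.5-fold higher, and the median was −0.06. Weighted for depth, the median against Cpa3-only cells was −0.40, and Gata2 (−0.52), Mcpt8 (−0.56) and Itgb7 (−0.49) were within 1.5-fold. Gata2 (−0.56) and Mcpt8 (−0.57) were also within it among cells of at least 10000 UMIs, and against Mpo-only cells Mcpt8 was so at a level of 400 CPM (0.47), with the stricter single-gene classes (0.52), without the highest doublet scores (0.57) and in G1 (0.42). The summed Cpa3 level of the double-positive class lay between those classes too (714 CPM against 1171 and 43.2). The rule puts it above that of Mpo-only cells but sets the same floor for Cpa3-only cells.

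Cyp11a1, the cholesterol side-chain cleavage enzyme gene that activated mast cells and basophils also transcribe (ENSMUSG00000032323, chromosome 9, 58006411 to 58027023), ran from 0 through 182 to 2306 CPM over the cells. Its summed level was 244 CPM (232 to 256) against 409 in Cpa3-only and 107 in Mpo-only cells, log2 ratios of −0.75 (−0.82 to −0.67) and 1.19 (1.09 to 1.29). Hdc, the histidine decarboxylase gene of histamine synthesis, stood at 55.4 CPM against 105 and 22.8, log2 ratios of −0.92 and 1.28. Gata2, the gene of a transcription factor that mast cells need, stood at 39.5 CPM against 60.8 and 21.7, log2 ratios of −0.62 (−0.81 to −0.44) and 0.87 (0.62 to 1.11). Itgb7, the integrin subunit of mast cell progenitor homing, had log2 ratios of −0.67 and 0.90. Csf2rb2, an interleukin 3 receptor subunit gene, had −1.02 and 0.84. The typical cell differed less for some genes. Mcpt8 was detected in 63.0% of double-positive, 60.8% of Cpa3-only and 66.3% of Mpo-only cells, with medians of 53.9, 58.2 and 49.3 CPM. Hdc was detected in 51.7%, 54.6% and 29.5%. Median levels of Cyp11a1 were 182, 306 and 70.0 CPM, and of Itgb7 65.4, 117 and 32.9 CPM. Cluster 3, mast cell or basophil-like and described further on, held 14.7% of Cpa3-only and 2.67% of double-positive cells.

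**Figure D3:**
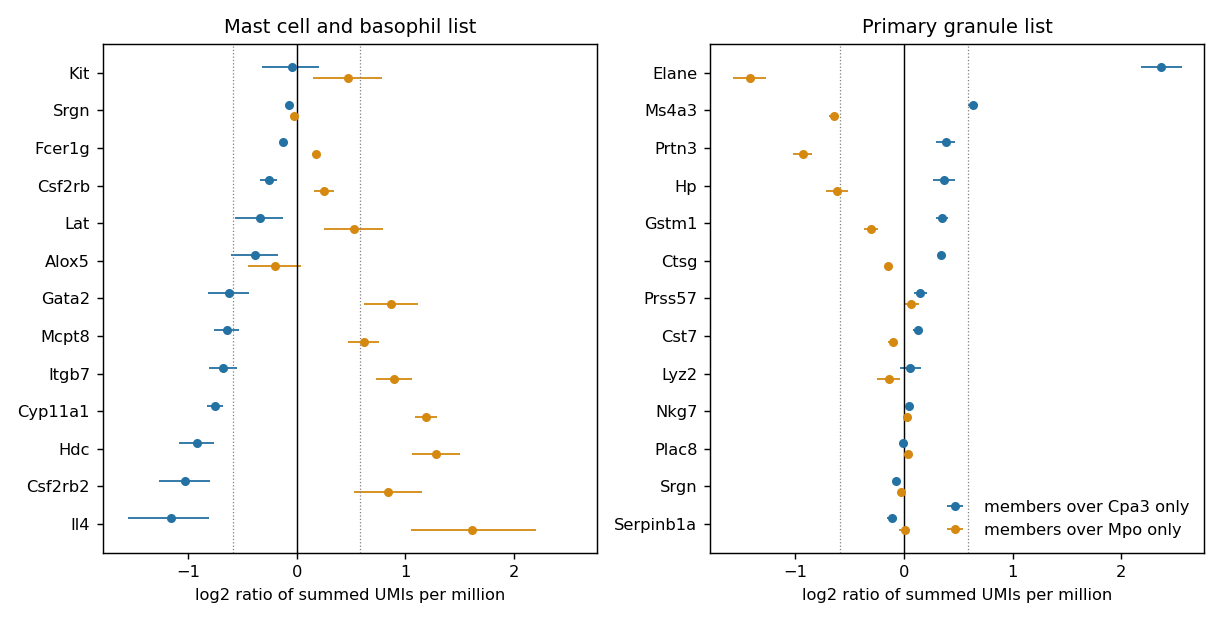
Log2 ratios of summed CPM (x axis) of double-positive over Cpa3-only cells (blue) and over Mpo-only cells (orange) for the mast cell and basophil list (left) and the primary granule list (right), with 95% counting intervals as bars and dotted lines at 1.5-fold. Blue points lie below 0 on the left, down to −1.16 for Il4, and mostly above 0 on the right, up to 2.37 for Elane. Orange points lie mostly above 0 on the left and mostly below 0 on the right.

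Granule and mast cell genes were also looked for within single cells. With each cell thinned to 5000 UMIs, 54.7% of the double-positive cells held Elane or Prtn3, against 40.9% of Cpa3-only and 75.0% of Mpo-only cells. Gata2, Hdc, Cyp11a1 or Itgb7 was held by 76.7%, against 89.1% and 57.2%. At least 1 gene of each set was held by 42.7% (37.0 to 48.5) of the double-positive, 36.3% of the Cpa3-only, 43.5% of the Mpo-only and 42.8% of the remaining cells. The double-positive share lay within 1 percentage point of those of Mpo-only cells and of cells at neither level, which lie inside its interval. These 6 genes were chosen after their values were seen.

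Over all genes that told the single-gene classes apart, the double-positive cells took a middle place. Of the 465 genes at least 1.5-fold apart, 460 (98.9%) had a level between the 2 classes, 4 above both and 1 below both. The exceptions were Far2, Pitpnc1, Hist1h1d, Ly6g and Ldlrad4. The 465 genes were chosen because the 2 classes lay apart, which by itself makes a level between them likely. A sum over cells of both kinds would also lie between, and its part was not tested. On a scale where the Mpo-only level is 0 and the Cpa3-only level is 1, the median place was 0.54 (quartiles 0.43 and 0.64). It was 0.48 for the 169 genes higher in Cpa3-only and 0.57 for the 296 higher in Mpo-only cells. Doublet scores moved with the class, and without the 5% highest scores 518 of 527 genes lay between. Cells at neither level also lay between the single-gene classes in several summed gene lists. Mast cell and basophil genes stood there at 4104 CPM (5051 in Cpa3-only, 3893 in Mpo-only) and primary granule genes at 16920.5 (14558 and 18238). S phase genes stood at 2225 (1512 and 2398) and G2/M genes at 6699 (4387 and 7502). For neutrophil maturation, protein folding and 8 genes high in vehicle cells they lay outside, on the opposite side from the double-positive cells. Neutrophil maturation genes stood at 4504 CPM at neither level and 1974 in double-positive cells (2122 in Cpa3-only, 2075 in Mpo-only). Protein folding genes stood at 10058 and 10581 (10564 and 10402). The 8 genes high in vehicle cells stood at 738 and 1143 (1094 and 847).

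**Figure D4:**
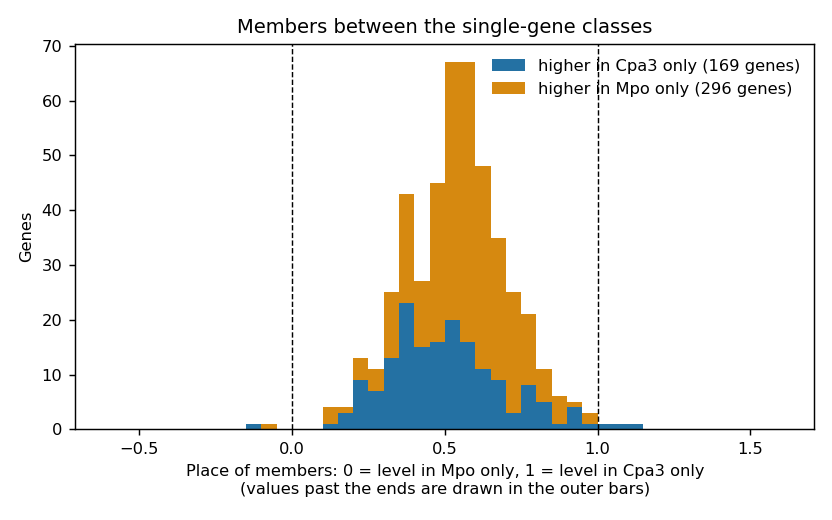
Number of genes (y axis) by the place of the double-positive class (x axis) between the Mpo-only level at 0 and the Cpa3-only level at 1, for 169 genes higher in Cpa3-only cells (blue) and 296 higher in Mpo-only cells (orange), stacked. Nearly all of the 465 genes, chosen because the single-gene classes lay apart, fall between the dashed lines, around a median of 0.54.

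Few genes lay outside the range of the single-gene classes by much. Of 5498 genes that reached 20 CPM in any of the 3 classes, 1 (0.0182%) was at least 1.5-fold above both single-gene classes and 0 (0%) were as far below both. The 1 gene was Camp, the cathelicidin of secondary granules, at 71.6 CPM against 21.4 and 27.3, but 94.8% of its UMIs came from 3 cells and only 17 of the 300 held any. Next above both classes was Igfbp4, a binding protein of insulin-like growth factors (ENSMUSG00000017493, chromosome 11, 99041244 to 99054392). It ran from 0 through 84.3 to 888 CPM over the cells, was found in 208 cells and stood at 113 CPM (105 to 121) against 85.9 and 84.5, log2 ratios of 0.39 (0.27 to 0.51) and 0.41 (0.28 to 0.55). Igfbp4 was at 55.0 CPM in cells at neither level and at 0.82 CPM in the retinoic acid library. In G1 cells its log2 ratios were 0.59 and 0.79, in G2/M 0.15 (−0.02 to 0.31) and 0.27 (0.09 to 0.45).

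Among genes below both classes, Spi1, which encodes the myeloid transcription factor PU.1, stood at 141 CPM (132 to 150) against 169 and 164, log2 ratios of −0.26 and −0.22. Spi1 was below both single-gene classes in each of the 3 phases, with ratios of −0.30 and −0.33 in G1, −0.04 and −0.29 in S and −0.08 and −0.21 in G2/M. The intervals against Cpa3-only cells included 0 in S (−0.38 to 0.27) and in G2/M (−0.23 to 0.06). Flii, an actin-binding protein gene, had log2 ratios of −0.22 and −0.30. None of these reached 1.5-fold.

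The highest ratios against Cpa3-only cells at 50 CPM or more belonged to Elane, S100a8 (2.18), Camp (1.74), Trem3 and Ms4a3. S100a8, a calcium-binding alarmin of maturing neutrophils, took 63.9% of its UMIs from 3 cells. The lowest were Akr1c18 (−1.93), Ccl6 (−1.65), Ctsh (−1.30), Prg2 (−1.09) and Csf2rb2, of which Ccl6 took 54.2% of its UMIs from 3 cells and Prg2 97.6%. Ctsh, the gene of cathepsin H, stood at 32.6 CPM against 80.1 in Cpa3-only and 10.7 in Mpo-only cells. Cdkn2a, which encodes the cell cycle inhibitors p16 and p19, stood at 109 CPM against 205 and 64.9, log2 ratios of −0.90 and 0.75.

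Against Mpo-only cells the highest were Epx (3.45), Akr1c13 (1.42), Camp (1.39), Hdc, Ifitm6 (1.23) and Ldhc (1.21). Fgf3, a fibroblast growth factor gene, had a log2 ratio of 1.11, and Ikzf2, which encodes the transcription factor Helios, 1.07. The lowest were Elane, S100a9 (−1.35), S100a8 (−1.07) and Prtn3. Tcrg-C1 (1.02) and the Akr1c genes have near-identical copies, which may have affected their counts.

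Ezh2, the methyltransferase of Polycomb repressive complex 2 (PRC2), lay between the classes at 56.2 CPM (50.6 to 62.2), against 44.9 in Cpa3-only and 74.6 in Mpo-only cells, log2 ratios of 0.32 and −0.41. Within phases its order was less clear: in G1 cells the ratios were 0.51 and −0.53, in S −0.58 and −0.68 and in G2/M −0.02 and −0.12. None of the 8 PRC2 genes compared was 1.5-fold apart in either comparison, and the list medians were 0.20 and −0.26. Progenitor genes had medians of 0.05 and 0.24, genes of protein folding in the endoplasmic reticulum 0.01 and −0.07, and myeloid transcription factors −0.04 and −0.01. Immediate early genes had −0.13 and 0.37, sorted antigens −0.28 and 0.22, and neutrophil maturation genes −0.12 and 0.04. Of the eosinophil list only Epx and Prg2 were compared (medians −0.93 and 3.95), with 69.7% of the Epx and 97.6% of the Prg2 UMIs of the class in 3 cells, and of the erythroid and megakaryocyte list 2 genes (−0.34 and 0.79). A list of 8 genes taken from earlier results of these data because they were high in vehicle cells had medians of 0.12 and 0.40, which is no independent evidence. Runx1, a transcription factor gene of blood progenitors, stood at 194 CPM against 242 and 143.

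The cell cycle differed between the classes as well. With cells thinned to 5000 UMIs, 46.3% (40.6 to 52.2) of the double-positive cells were called G1, 12.3% S and 41.3% G2/M. Cpa3-only cells were 68.6% G1 and 24.9% G2/M, and Mpo-only cells 26.6% G1 and 57.8% G2/M. The G1 share of the double-positive class was thus 22.2 percentage points lower than in Cpa3-only (Newcombe interval −28.1 to −16.3) and 19.8 points higher than in Mpo-only cells (13.1 to 26.3). The S share was 5.83 points above Cpa3-only cells, and its difference of −3.29 points from Mpo-only cells had an interval that included 0 (−7.76 to 1.68). Phase calls were closest to those of cells at neither level, 41.0% G1, 13.5% S and 45.5% G2/M.

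S phase genes had a median log2 ratio of 0.43 against Cpa3-only cells, with 31 of 31 above 0. Against Mpo-only cells it was −0.31, with 30 of 32 below 0. G2/M genes had medians of 0.37, with 40 of 40 above 0, and −0.45, with 45 of 45 below 0. Medians over all genes leaned the same ways (0.07 and −0.06), so these counts alone do not set the lists apart. Cell cycle scoring also reads S and G2/M genes, so these values in part repeat the phase shares. Weighting the single-gene classes to the same depths took the G2/M median against Cpa3-only cells to 0.05. Ccnb1, the gene of cyclin B1, stood at 80.4 CPM against 54.6 and 114.

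Within G1 and within G2/M the order of the lineage genes held, and in S it was less certain. Of 24 genes followed by phase, chosen after their values were seen, 20 lay between the single-gene classes in G1, 16 in S and 21 in G2/M. In G1, Elane stood at 43.9 CPM against 8.76 and 167, Ms4a3 at 625 against 358 and 960, and Cyp11a1 at 302 against 514 and 148. In G2/M, Elane stood at 79.3 CPM against 17.5 and 176, and Cyp11a1 at 213 against 262 and 91.8. In S, with 37 double-positive cells, Elane stood at 48.5 CPM against 14.2 and 149, and Cyp11a1 at 206 against 312 and 121. Intervals of the S ratios included 0 against Cpa3-only cells for Gata2, Mcpt8, Hp, Trem3 and Csf2rb2. Against Mpo-only cells they did so for Hdc, Itgb7 and Csf2rb2. Igfbp4 and Spi1 lay outside in each phase, Igfbp4 above and Spi1 below both classes. In S the Igfbp4 ratio against Cpa3-only cells was 0.22, with an interval that included 0 (−0.12 to 0.54). Cd34 and Cd48 also lay above both classes in G1, with log2 ratios of 0.55 and 0.35 for Cd34 and 0.26 and 0.65 for Cd48. Restricted to the 139 double-positive cells in G1, 137 genes were past 1.5-fold against Cpa3-only and 236 against Mpo-only cells, with fewer UMIs behind each.

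Clusters made without Cpa3 and Mpo did not set the class apart. Of 6 clusters, 3 held 280 of the 300 cells: 111 (37.0%) in cluster 0, led by the mitotic genes Nusap1, Cenpf and Ube2c, 99 (33.0%) in cluster 1, led by Hspb1, Lair1 and Snhg11 and 99.3% G1, and 70 (23.3%) in cluster 2, led by the S phase genes Ung, Ccne1 and Cdc6. Cpa3-only cells were 20.1%, 48.6% and 12.7% in these clusters and Mpo-only cells 53.6%, 13.7% and 32.2%. Cluster 0 was 91.5% G2/M, so these clusters differed in cell cycle and their shares in part repeat the phase calls. Summing over clusters the smaller of the 2 shares, the double-positive class had 72.3% in common with Cpa3-only, 74.4% with Mpo-only and 89.1% with cells at neither level, while the single-gene classes had 46.6% in common.

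**Figure D5:**
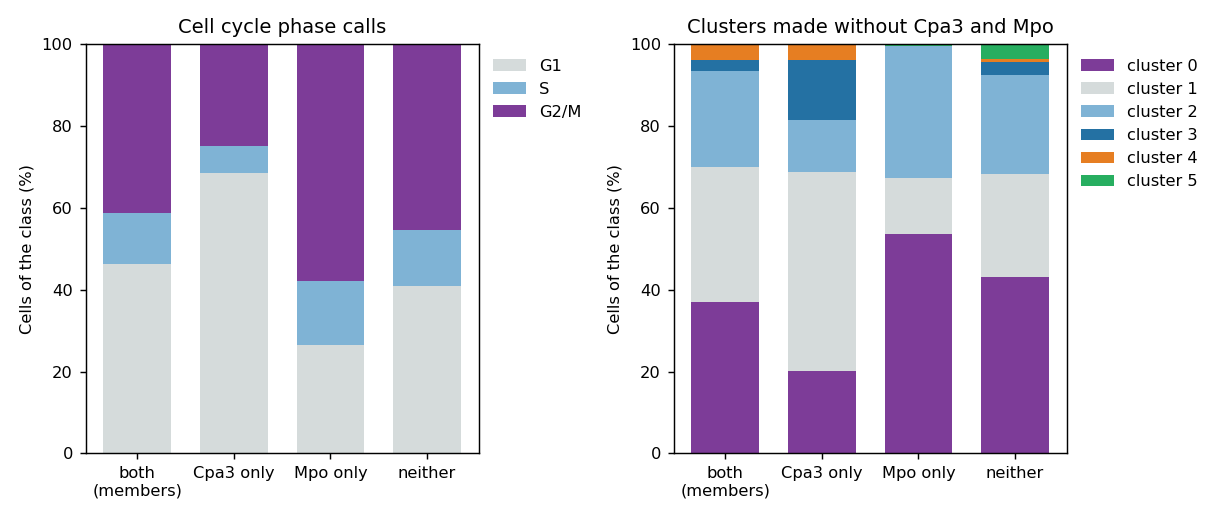
Percent of the cells of each class (y axis) in the 3 called cell cycle phases (left) and in 6 clusters made without Cpa3 and Mpo (right). The double-positive bar lies between the single-gene bars for G1 (46.3%) and for clusters 0 (37.0%), 1 (33.0%) and 2 (23.3%).

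Small groups stood out at the edge of the class. Cluster 3, mast cell or basophil-like by 5 of its 10 leading genes (among them Il13, Cd200r3 and Gzmb), held 8 double-positive cells (2.67%), 348 Cpa3-only cells (14.7%) and 0 Mpo-only cells, which allows up to 0.592% by the exact interval. Its 8 double-positive cells had a median Cpa3 level of 1599 and a median Mpo level of 300 CPM, so Mpo was under Cpa3 in the typical cell.

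Cluster 4, eosinophil-like by 4 of its 10 leading genes (Epx, Ear6, Prg3 and Prg2), held 11 double-positive cells (3.67%), 89 Cpa3-only and 0 Mpo-only cells. All of its 11 cells at the Mpo level were therefore double-positive. They carried 273 of the 346 Epx UMIs of the class, 6 of the 11 were among the 5% highest doublet scores, and their median depth was 35478 UMIs against 21427 in the cluster. Their median score was 0.208 against 0.0766. The part of doublets in these 11 cells was not tested. Cluster 5, maturing neutrophil-like, held 1 double-positive cell.

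Within the class, cells with Cpa3 above Mpo (114) were compared with cells with Mpo above Cpa3 (168), reading other genes only. At least 1.5-fold differences were found for 106 of 5429 genes (1.95%), 48 higher (0.884%) and 58 lower (1.07%) with Cpa3 above. Hdc stood at 77.2 CPM with Cpa3 above and 43.0 with Mpo above, a log2 ratio of 0.84 (0.53 to 1.16), and Cyp11a1 at 300 against 206, a ratio of 0.54 (0.40 to 0.69). Itgb7 had 0.53 (0.28 to 0.79) and Mcpt8 0.75 (0.53 to 0.97). Elane had −0.38 (−0.69 to −0.08), Ms4a3 −0.28 (−0.36 to −0.19) and Ctsg −0.20 (−0.23 to −0.17), while the intervals of Prtn3 (−0.22 to 0.11) and Gata2 (−0.19 to 0.56) included 0. Intervals also included 0 for Fcer1g (ratio 0.02), Kit (0.04), Alox5 (−0.09), Lat (0.35) and Il4 (0.55) of the mast cell and basophil list. The same held for Cst7 (0.005), Serpinb1a (0.04) and Lyz2 (−0.11) of the granule list and for Srgn (0.03) of both lists. Median depths were 18559 and 18822 UMIs, and G1 shares 51.8% and 39.9%.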

How the data were processed

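The deposited values were raw UMI counts per gene and cell, from Cell Ranger, version 4.0.0, as the file headers and the submitters' processing notes give it, and no normalisation had been applied to the counts by the authors. The submitters' processing notes name mm10 and GRCm38.p4. Of 32285 gene identifiers 32158 matched GENCODE M21, which gave the GRCm38 positions. The filter removed 640 of 5786 vehicle barcodes (99679545 UMIs in all), of which 18 met both levels and 7 of those had too few mitochondrial UMIs.

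Counts were summed over the cells of a class and expressed as CPM. Log2 ratios had 0.5 counts added to each sum, and genes needed 20 CPM in either class. Sums carry exact Poisson, ratios exact conditional binomial and shares exact binomial (Clopper-Pearson) 95% intervals, and differences of shares Newcombe's. With 1 library a group no test was made. Named were Cpa3, Mpo, Ezh2, genes of the sorted antigens, members of 16 gene lists at 20 CPM or more, the 10 highest and 10 lowest ratios at 50 CPM or more in each comparison, up to 10 genes above and up to 10 below both single-gene classes, and the 5 leading genes of each cluster. Members, lists and rules were chosen with earlier results of these data known.

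Phases came from the cell cycle scoring of scanpy 1.11.5 on both libraries, thinned to 5000 UMIs. Clusters used 2000 variable genes, 30 components, 15 neighbours and Leiden resolution 0.5 (leidenalg 0.10.2, igraph 0.11.9). No doublets were removed. TMM factors came from edgeR 4.0.16, and the rest from Python 3.11.15 with numpy 2.4.6, scipy 1.17.1 and pandas 2.3.3. The ratio calculation was tested on simulated counts. Alternatives changed the level, cell filter, depth weighting, phase, doublet scores, CPM minimum, fold, scaling and cluster settings.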

Additional observations from a re-analysis of the deposited data

How the results depend on the processing

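No paired analysis was possible because there was 1 library per group. The number of cells depended on the level: 100 CPM gave 503 cells (9.77%, 0.75 times the product of the shares), 400 gave 137 (2.66%, 0.47 times), and thinning to 5000 UMIs gave 481 (9.35%, 0.74 times). With a level of 400, 124 genes passed 1.5-fold against Cpa3-only and 193 against Mpo-only cells; with single-gene classes also limited to at least 400 of one gene and under 100 of the other, 136 and 251. Without the 5% highest doublet scores, 98 passed against Cpa3-only cells; with depth weighting, 25; with every cell weighted equally, 133; and in G1 cells, 137, with 236 against Mpo-only cells. A minimum of 100 CPM left 12 and 23 genes and one of 5 CPM gave 271 and 354. Without a minimum 4420 and 3298 of the genes with any UMI passed, where single UMIs decide the ratio, and a 2-fold limit left 15 and 22.

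Genes with levels between the single-gene classes made up 94.9% at a level of 400, 95.1% with the stricter single-gene classes, 95.3% with depth weighting, 92.4% in G1 cells, 100% at 100 CPM and 95.2% at 5 CPM. The G1 share exceeded that of Mpo-only cells by 26.8 points at a level of 400, and with 15 components 79.6% of the cluster distribution was shared with Mpo-only cells.

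The primary granule median against Cpa3-only cells was 0.22 at a level of 400, 0.23 with the stricter classes, 0.21 with equal weights, 0.26 in G1 and 0.078 with TMM factors, and against Mpo-only cells −0.00099 at a level of 400. Depth weighting gave −0.40 for mast cell and basophil genes, −0.19 for sorted antigens and 0.046 for G2/M genes against Cpa3-only cells, and 100 CPM gave 0.25 for mast cell and basophil genes against Mpo-only cells. The sorted antigen median against Mpo-only cells was 0.29 at a level of 400 and with the stricter classes, 0.25 without the highest doublet scores, 0.25 with equal weights and 0.26 with TMM factors, and −0.35 against Cpa3-only cells with TMM factors. The neutrophil maturation median (−0.12 against Cpa3-only and 0.04 against Mpo-only cells) had no settled sign: it was −0.30 and −0.54 at a level of 400, −0.30 and −0.63 with the stricter classes, 0.089 against Cpa3-only cells in G1, and −0.14 against Mpo-only cells at 5 CPM. In G1 against Mpo-only cells the medians were −0.13 for protein folding, −0.027 for immediate early, −0.51 for S phase and −0.14 for G2/M genes and 0.54 for the list of genes high in vehicle cells, which was 0.24 against Cpa3-only cells and, without the highest doublet scores, 0.51 against Mpo-only cells. Protein folding was −0.062 against Cpa3-only cells with TMM factors, and myeloid factors −0.18 at 100 CPM.

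Camp changed direction, to −2.18 and −2.81 at a level of 400 and −2.25 and −2.82 with the stricter classes, which leave out cells that held its UMIs. Ccl6 against Mpo-only cells went to −0.25 at a level of 400, and Prg2 against Cpa3-only cells to 0.018 with at least 10000 UMIs. In G1, Bub1b went to 0.057, Ckap2l to 0.22 and Kif2c to 0.22 against Mpo-only cells. Leaving out cells with at least 5% maturation UMIs, chosen after seeing the data, took Camp and the maturation median against Mpo-only cells to −0.32. Except where the construction is named, the cause was not tested. Of the other values that answer a comparison, 320 moved by less than the limit set for their kind. Among the values of single genes and the counts by direction, 3309 stayed within it, 841 moved past it and 11 changed direction. Alternatives with fewer cells have fewer UMIs behind each gene, which limits their precision.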
